A study of Mus musculus with 6 samples.

Results

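Ms4a4a, Ms4a4c, Ms4a6b, Ms4a6c, Ms4a6d and Ms4a7 are Ms4a genes known from macrophages, and their transcripts were followed here in RPE-choroid, the retinal pigment epithelium (RPE) with the vascular choroid beneath it. These 6 members were chosen by name and matched to the gene table by their Ensembl identifiers, and all 6 were among the 15663 genes listed. RNA from 6 male C57BL/6J mice (strain C57BL/6 in the sample labels), aged 8 to 10 weeks at the start, was sequenced as 6 libraries. The 3 control mice were untreated and healthy. In the 3 subretinal fibrosis (SRF) mice, each eye received 4 laser burns around the optic nerve head, and every lesion was burned again after 10 days. The RPE-choroid was removed 20 days after this second laser. No engineered allele is named for either group, and the sources used here do not give how many eyes made up a library. The model takes whole RPE-choroid around a few focal lesions, so lesion and intact tissue were measured together.

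The Ms4a genes encode small proteins that cross the membrane several times and sit beside other receptors, whose surface level and signalling they modify. The family's best known members lie outside the macrophage lineage: Ms4a1 encodes the B cell protein CD20, and Ms4a2 the beta chain of the mast cell receptor for IgE. Ms4a7 is widely used to tell infiltrating and border macrophages from parenchymal microglia, Ms4a4a marks tissue macrophages and partners with the beta-glucan receptor Clec7a, and Ms4a6d has been linked to restraint of the Nlrp3 inflammasome. Ms4a6b and Ms4a4c are expressed by T cells as well as by myeloid cells.

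All 6 members lay on chromosome 19 within 284 kb (GRCm38, positions 11321039 to 11604849). Ms4a7 (ENSMUSG00000024672) occupied chr19:11321039-11336146 on the minus strand and Ms4a6d (ENSMUSG00000024679) chr19:11586604-11604849, also on the minus strand. Between them, on the plus strand, were Ms4a4a (ENSMUSG00000101389) at chr19:11375523-11392790, Ms4a4c (ENSMUSG00000024675) at chr19:11404770-11427246, Ms4a6c (ENSMUSG00000079419) at chr19:11469366-11482192 and Ms4a6b (ENSMUSG00000024677) at chr19:11516512-11531256. Each member had 7 exons in its representative coding transcript, with coding sequences of 651 to 801 bases. Ms4a6b and Ms4a6c were the closest relatives, with 85.8% identical bases where their coding sequences aligned, followed by Ms4a6b and Ms4a6d at 81.2% and Ms4a6c and Ms4a6d at 77.4%. Ms4a4a and Ms4a4c shared 68.2%, and all other pairs 55.6% to 63.9%. Neither Ms4a7 nor Ms4a4a shared any stretch of 50 bases with an annotated transcript of another gene. Ms4a6b, Ms4a4c and Ms4a6d shared 8.91%, 8.48% and 2.92% of such stretches, mostly with other Ms4a genes. Ms4a6c shared 56.9%, with 993 of its 1020 shared stretches found in the antisense gene BE692007. Of the 146 shared stretches of Ms4a6b, 82 were found in BE692007 too.

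RefSeq promoter windows (GRCm38.p6) were at hand for 5 of the 6 members. Promoters were compared in pairs among the 6 Ms4a genes on the plus strand, Ms4a4b and Ms4a4d included. The windows of Ms4a6c and Ms4a6b are shown because these neighbours had the most similar promoters of those compared and unlike values in SRF. Capitals mark their longest identical run, 48 bases long, which lay 49 to 2 bases before the Ms4a6c start (chr19:11469218-11469367, plus strand) and 118 to 71 bases before the Ms4a6b start. The Ms4a6b window (chr19:11518333-11518482, plus strand) stops 77 bases before the start, 30 bases into an exon of another GENCODE transcript, and so holds 42 bases of the run.
Ms4a6c: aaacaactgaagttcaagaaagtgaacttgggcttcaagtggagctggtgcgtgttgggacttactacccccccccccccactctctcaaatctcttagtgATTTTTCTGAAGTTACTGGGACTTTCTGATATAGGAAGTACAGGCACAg
Ms4a6b: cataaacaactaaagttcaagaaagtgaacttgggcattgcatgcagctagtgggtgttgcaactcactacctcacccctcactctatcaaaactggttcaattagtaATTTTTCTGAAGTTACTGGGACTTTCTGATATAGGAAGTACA
Over the 250 bases before each start, 85.1% of 175 aligned bases were identical between this pair. The next most similar pair was Ms4a4c (chr19:11407511-11407660, plus strand) and its neighbour Ms4a4b (chr19:11443408-11443557, plus strand), with 75.3% of 239 aligned bases identical. Their longest shared run, again in capitals, was 20 bases. They are shown because both had lower mean normalised counts in SRF, although Ms4a4c was not tested and its groups overlapped. A link between promoter and level was not tested.
Ms4a4c: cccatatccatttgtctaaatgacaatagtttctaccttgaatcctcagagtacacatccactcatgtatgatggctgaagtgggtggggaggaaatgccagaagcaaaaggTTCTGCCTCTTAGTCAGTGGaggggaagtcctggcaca
Ms4a4b: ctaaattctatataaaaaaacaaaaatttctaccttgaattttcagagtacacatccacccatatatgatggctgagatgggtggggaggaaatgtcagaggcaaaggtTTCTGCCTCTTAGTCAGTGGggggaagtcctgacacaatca
The first RefSeq start of Ms4a7, the most abundant member, had the window chr19:11336147-11336296 on the minus strand, printed here 5′ to 3′ as the strand reads, with matches to TTNNGNAA on either strand in capitals.
Ms4a7: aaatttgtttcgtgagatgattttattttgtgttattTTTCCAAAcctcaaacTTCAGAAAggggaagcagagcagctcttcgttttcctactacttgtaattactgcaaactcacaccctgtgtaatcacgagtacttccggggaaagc
TTNNGNAA, the core letters of C/EBP sites, was found on either strand within 250 bases before all 6 starts listed for the 5 members (Ms4a7 has a second start), and in 36.8% of 32851 mouse promoters of the same length. GAGGAA, the core of Spi1 sites, was found before 1 of the 6 member starts, that of Ms4a4c, and in 23.3% of all promoters. TGANTCA, the AP-1 motif, was found only before the second start of Ms4a7, against 6.75% of all promoters. The interferon response motif, GAAA followed after any 2 bases by GAAA, was found before none of the 6, against 2.98% of all promoters.

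Library totals over the listed genes lay between 13667310 and 24356023 counts. In CPM, the counts scaled to a common library size with edgeR's TMM factors, RPE genes were abundant in every library, with 10 of 10 markers listed and a summed level of 45148 to 52953 in control and 30679 to 39795 in SRF. Photoreceptor RNA varied between libraries rather than between groups. The mean log2 CPM of 10 photoreceptor genes was 8.37 in control 1 and 8.46 in SRF 3, and 4.41 to 5.71 in the other 4 libraries.

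Across the family, the 4 members Ms4a7, Ms4a6d, Ms4a6c and Ms4a4a were higher in all 3 SRF libraries than in any control library, Ms4a6b overlapped between the groups, and Ms4a4c was too sparse to test. Of the 5 members with more than 50 counts in at least 2 libraries, all 5 had a log2 fold change above 0, against 50.3% of the 13454 genes tested, and their median was 0.63, against 0.00 over all tested genes. Groups that did not overlap, with all SRF values on top, were seen for 4 of the 5, against 6.71% of tested genes. An unadjusted p under 0.05 with a higher SRF level was seen for 3 of the 5, against 4.16% of tested genes. A gene counted as called if its adjusted p was under 0.05 and its absolute log2 fold change 0.5 or more. By this rule edgeR's quasi-likelihood test called no gene in the table (0.0%), members included, although 943 genes (7.01%) had an unadjusted p under 0.05. DESeq2 called 153 genes (1.14%, with 0.803% called higher in SRF), and Ms4a7 was the member among them. No member was called by limma on the log2 FPKM values with either pseudocount (0.0149% of genes called), by the newer form of the edgeR fit (0.00743%) or with photoreceptor RNA as a covariate (0.00743%).

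**Figure D1:**
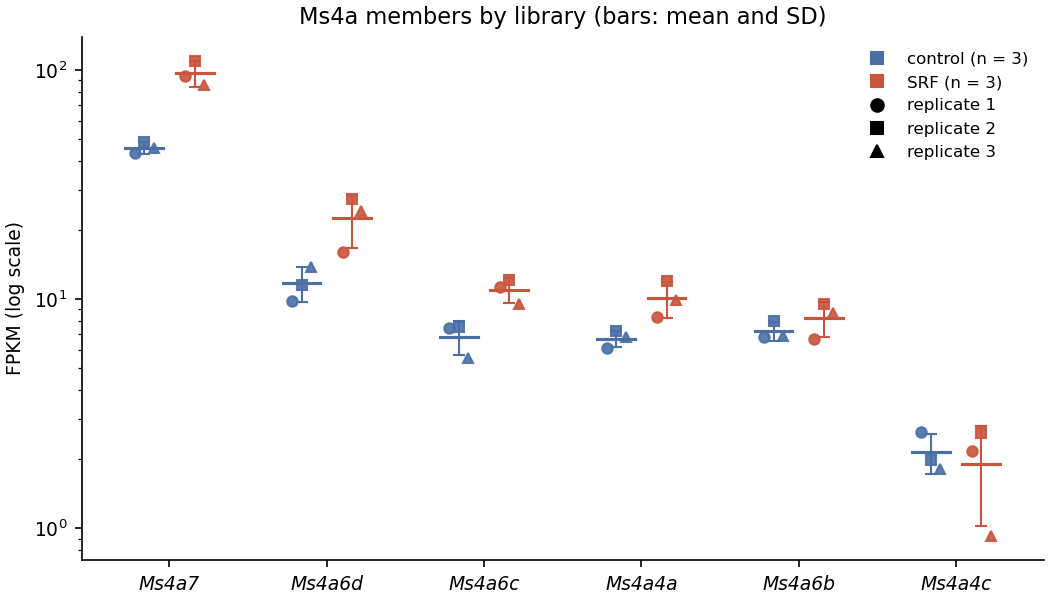
Level of each member in FPKM as deposited (vertical axis, log scale) in 3 control and 3 SRF libraries, with points for single mice and bars for mean and SD. The SRF points lie above all control points for Ms4a7, Ms4a6d, Ms4a6c and Ms4a4a, and overlap them for Ms4a6b and Ms4a4c.

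Ms4a7 had 54.3, 59.4 and 56.8 CPM in control mice 1, 2 and 3, and 112, 131 and 104 CPM in SRF mice 1, 2 and 3. The control values were close together, and every SRF library was well above them. The group means were 56.8 ± 2.53 and 116 ± 14.2 CPM (SD, n = 3 each), so SRF was at 2.03 times the control level. These values rest on 730 to 1361 counts in control and 1849 to 2357 in SRF. The log2 fold change was 1.02 (SE 0.12), with an unadjusted p of 7.4e-05 and a Benjamini-Hochberg adjusted p of 0.167 in edgeR. DESeq2 gave the same log2 fold change of 1.02 with an adjusted p of 1.89e-08. The fitted size was thus alike in both tools, and the adjusted p fell on different sides of the threshold. The exact two-sided permutation test gave p = 0.1, which is the smallest value that 3 mice against 3 allow.

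Ms4a6d had 14.2, 16.8 and 19.7 CPM in the control mice and 22.5, 37.4 and 34.1 CPM in the SRF mice. All SRF values were above all control values, but SRF 1 stood close to the highest control, so the groups were separated by a narrow gap. Its mean was 16.9 ± 2.74 CPM in control and 31.3 ± 7.82 CPM in SRF (SD, n = 3 each), with a log2 fold change of 0.89 (SE 0.22, edgeR adjusted p = 0.407, DESeq2 adjusted p = 0.0633). With single libraries left out, in fits chosen after seeing the data, the DESeq2 adjusted p ranged from 0.0015 without SRF 1 (log2 fold change 1.07) to 0.766 without SRF 2 (0.73), and it was under 0.05 only without SRF 1.

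Ms4a6c had 14.1, 14.2 and 10.3 CPM in the control mice and 20.5, 21.8 and 17.4 CPM in the SRF mice. The groups did not overlap, and control 3 and SRF 3 were the low library of their group. The mean went from 12.9 ± 2.18 to 19.9 ± 2.28 CPM (SD, n = 3 each), with a log2 fold change of 0.63 (SE 0.18, edgeR adjusted p = 0.447, DESeq2 adjusted p = 0.207). An antisense gene, BE692007, overlaps Ms4a6c and shares 49.7% of the stretches of 150 bases in its transcript. BE692007 was not listed in the tables, and the strandedness of the libraries is not given in the sources used here, so reads from the shared stretches cannot be assigned to one of the pair.

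Ms4a4a, the closest member to Ms4a7 on the chromosome, had 5.21, 6.18 and 5.80 CPM in control and 6.92, 9.75 and 8.23 CPM in SRF. Again no SRF value fell within the control range, at 70 to 175 counts per library. The mean was 5.73 ± 0.490 CPM in control and 8.30 ± 1.41 CPM in SRF (SD, n = 3 each), and the log2 fold change of 0.53 (SE 0.23) had an edgeR adjusted p of 0.720 and a DESeq2 adjusted p of 0.788.

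Ms4a6b, in contrast, had 12.9, 15.2 and 12.3 CPM in control and 11.8, 16.1 and 14.9 CPM in SRF. Its groups overlapped fully, with both the lowest and the highest value in SRF. The means were 13.5 ± 1.53 and 14.3 ± 2.19 CPM (SD, n = 3 each), the log2 fold change was 0.09 (SE 0.18, edgeR adjusted p = 0.9999), and the exact permutation test gave p = 0.8. Without SRF 2 the log2 fold change was -0.01. An antisense gene that was not listed, Gm19261, overlaps Ms4a6b.

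Ms4a4c was the scarcest member, at 3.57, 1.90 and 3.17 CPM in control and 2.60, 2.62 and 1.57 CPM in SRF, from 28 to 76 counts. Only 1 library had more than 50 counts, so the gene was not tested with the others, and its groups overlapped. When every listed gene entered the edgeR fit, its log2 fold change was -0.35 (SE 0.38, adjusted p = 0.989). Here too an antisense gene that is not in the tables, Gm5692, overlaps the locus.

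The members could be compared with each other within each library, since any factor common to a library cancels in the ratio of counts. Against Ms4a6b, taken as the reference after its overlap between groups was seen, Ms4a7 had 4.22, 3.91 and 4.61 counts per Ms4a6b count in the control mice and 9.45, 8.16 and 6.95 in the SRF mice. The ratio of Ms4a6c to Ms4a6b, the pair with the alike promoters shown above, was 1.09, 0.932 and 0.841 in control and 1.74, 1.35 and 1.17 in SRF. Both ratios were higher in every SRF library. The same held for Ms4a6d, at 1.10 to 1.60 in control and 1.90 to 2.32 in SRF, and for Ms4a4a, at 0.405 to 0.471 and 0.553 to 0.606. Since these 4 members were already separated in CPM and the reference was not, the ratios restate that separation within libraries and are given without a test. The ratio of Ms4a4c to Ms4a6b overlapped between the groups.

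Levels between genes were compared in FPKM, the fragments scaled by transcript length and by mapped reads, as deposited by the authors. Ms4a7 was the highest member, with 43.3, 48.5 and 45.5 FPKM in control and 94.4, 110 and 85.9 FPKM in SRF, and its mean over the 6 libraries was above that of 91.7% of listed genes. Ms4a6d followed at 11.7 ± 2.01 FPKM in control and 22.5 ± 5.81 FPKM in SRF, and in the 6 libraries Ms4a7 was 3.29 to 5.88 times as high. Ms4a6d was in turn 1.31 to 2.55 times as high as Ms4a6c in every library. The next 3 members stood close together, at 6.85 ± 1.15, 6.72 ± 0.557 and 7.25 ± 0.686 FPKM in control for Ms4a6c, Ms4a4a and Ms4a6b, and at 10.97 ± 1.33, 10.1 ± 1.78 and 8.28 ± 1.46 FPKM in SRF (SD, n = 3 each). Ms4a6c was above Ms4a4a in 4 of 6 libraries and Ms4a4a above Ms4a6b in 3 of 6, so these neighbours did not differ beyond their spread. Ms4a4c was lowest at 2.14 ± 0.425 and 1.90 ± 0.877 FPKM, below Ms4a6b in all 6 libraries. For the 3 neighbouring pairs ordered alike in every library the exact sign-flip permutation test over 6 libraries gave p = 0.0312 (0.0521 after Benjamini-Hochberg adjustment over 5 pairs). This p is the smallest that the test allows with 6 libraries. With 3 of 5 pairs at this floor, the adjusted p could not fall under 0.05. The distances between members depended on the length used: in counts per kilobase of the longest annotated transcript, Ms4a7 was 1.13 to 1.96 times as high as Ms4a6d, and Ms4a4a was 2.07 to 3.10 times as high as Ms4a6b in all 6 libraries.

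Summed over the 6 members, the level was 76.2, 84.8 and 80.5 FPKM in the control mice and 139, 173 and 139 FPKM in the SRF mice. The summed level was thus 1.87 times as high in SRF, 150 ± 19.8 against 80.5 ± 4.32 FPKM (SD, n = 3 each, exact permutation p = 0.1). Without Ms4a7 the sum was 1.55 times as high, 53.7 ± 9.46 against 34.7 ± 1.71 FPKM. Ms4a7 made up 56.8%, 57.2% and 56.6% of the sum in control and 68.0%, 63.4% and 61.7% in SRF. Its share was higher in every SRF library, and the shares of Ms4a6b (8.998% ± 0.449 against 5.50% ± 0.717), Ms4a4a (8.34% ± 0.267 against 6.68% ± 0.578) and Ms4a4c (2.68% ± 0.660 against 1.24% ± 0.504) were lower in every SRF library (SD, n = 3). The shares of Ms4a6d (14.6% and 14.9%) and Ms4a6c (8.53% and 7.31%) overlapped between the groups. For the 4 shares that did not overlap, the exact permutation p was 0.1, or 0.15 after adjustment over the 6 members. The shares of a library add up to the whole, so a higher share of Ms4a7 lowers the others, and these 4 results are not separate. Ms4a4a had a lower share although its mean FPKM was higher in SRF (10.1 against 6.72).

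**Figure D2:**
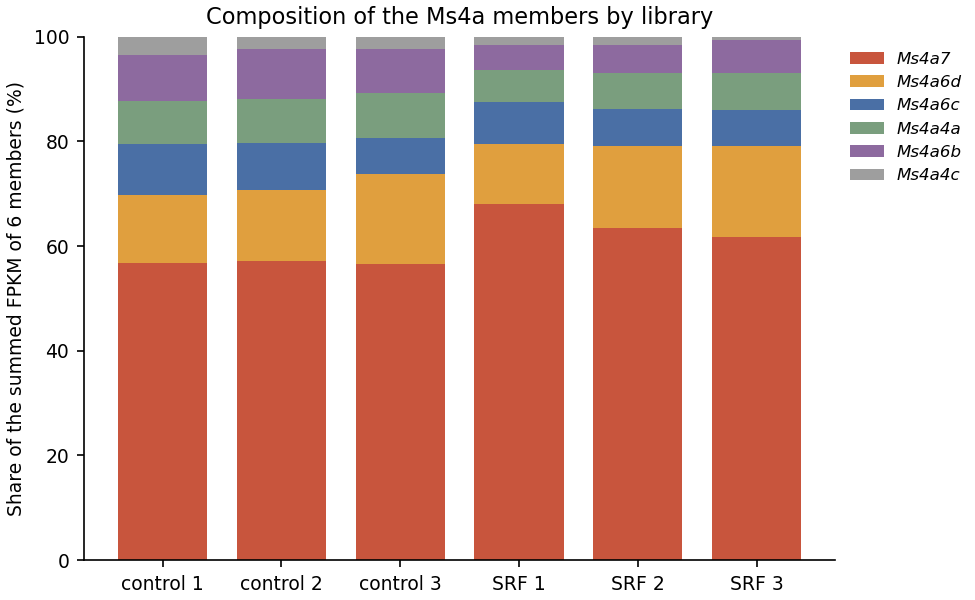
Share of each member in the summed FPKM of the 6 members (vertical axis, percent) in each of 3 control and 3 SRF libraries. Ms4a7 fills 56.6% to 57.2% of the control bars and 61.7% to 68.0% of the SRF bars.

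The rest of the family was considered next. GENCODE M21 holds 19 Ms4a genes on GRCm38, of which 11 were listed in the tables: the 6 members and Ms4a1, Ms4a14, Ms4a18, Ms4a4b and Ms4a4d. Of the 5 other genes, 3 passed the count filter, 1 with a higher and 2 with a lower SRF level. Ms4a4b, a T and NK cell gene between Ms4a4c and Ms4a6c, had 6.18, 4.50 and 4.38 CPM in control and 2.70, 2.45 and 3.64 CPM in SRF. All its SRF values were below all control values, as for 6.43% of tested genes, the opposite order to the members on either side that were tested, and its log2 fold change was -0.77 (SE 0.31, edgeR unadjusted p = 0.0411, adjusted p = 0.672). In FPKM the groups of Ms4a4b overlapped. Ms4a14, the gene next to Ms4a7, averaged 2.46 ± 0.880 and 4.02 ± 0.480 CPM in control and SRF mice, with all SRF values above all control values (log2 fold change 0.71, SE 0.36, edgeR adjusted p = 0.787). Ms4a4d, between Ms4a6b and Ms4a6d, had 5.76 ± 2.32 and 4.89 ± 1.13 CPM with overlapping groups (log2 fold change -0.24, SE 0.38). Ms4a1 had 4 to 20 counts and Ms4a18 1 to 10 counts per library, too few to test.

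**Figure D3:**
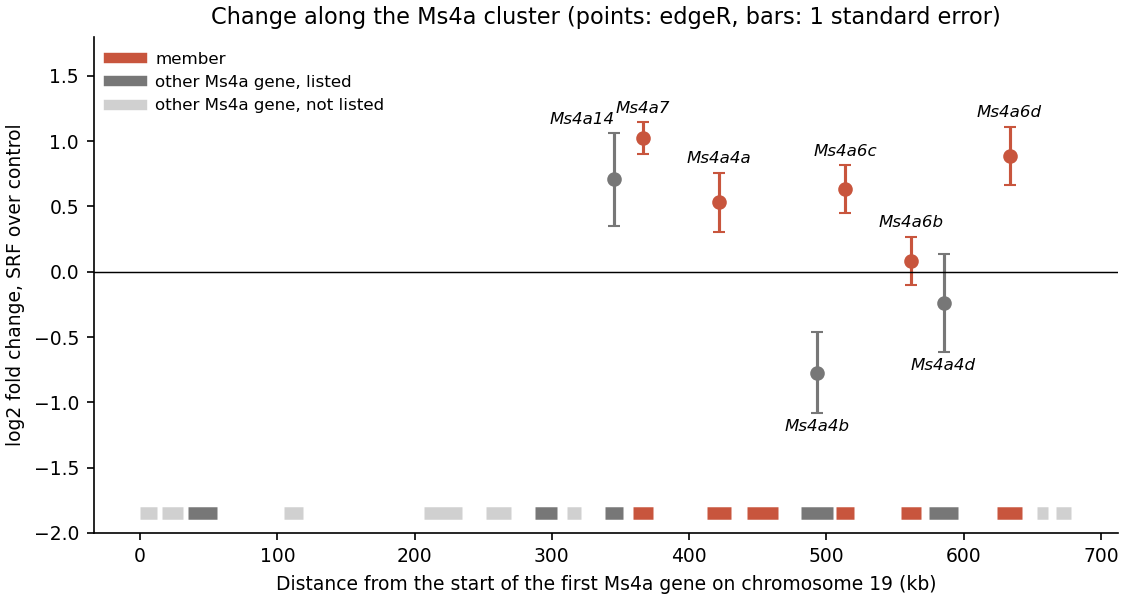
Fitted log2 fold change of SRF over control (vertical axis, edgeR, bars of 1 SE) for the 8 tested Ms4a genes against their position in the cluster in kb, with a strip below for all annotated Ms4a genes. The points run from 1.02 for Ms4a7 to -0.77 for Ms4a4b, and the 2 values below 0, for Ms4a4b and Ms4a4d, stand between members with values above 0.

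Genes around the cluster gave a view of the chromosomal neighbourhood. Inside the Ms4a span only 1 of 16 annotated genes whose symbol does not begin with Ms4a was listed, and it did not pass the count filter. Counting also those within 1 Mb on either side, 31 such genes were tested, 21 with a higher and 10 with a lower SRF level. Of all tested genes, 50.3% had a log2 fold change above 0. The median log2 fold change of the 31 genes was 0.05, against 0.00 over all tested genes, and their range -0.37 to 0.87. None of the 31 was called by edgeR or by DESeq2, which called 0.0% and 1.14% of all tested genes. An unadjusted p under 0.05 in edgeR was seen for 2 of the 31, against 7.01% of tested genes. The median of the 5 tested members was 0.63.

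Because the tissue was measured in bulk, more cells of a type and more RNA per cell cannot be told apart. Macrophage markers are therefore given beside the members. All 17 genes of the macrophage list were tested, 15 were higher and 2 lower in SRF, the median log2 fold change was 0.81, and all SRF values lay above all control values for 10 of them. DESeq2 called 7 of the 17, all higher, among them Lyz2 (lysozyme, log2 fold change 1.49, SE 0.21), Ctss (cathepsin S, 1.61, SE 0.17) and C1qb (a complement C1q chain, 0.90, SE 0.17). Csf1r, the receptor for the macrophage growth factor, was not higher (-0.03, SE 0.11), nor was the efferocytosis receptor Mertk (-0.11, SE 0.13). The summed level of the list was 1639, 2097 and 2082 CPM in control and 3793, 5467 and 4071 CPM in SRF, with 45.3% to 60.4% of it from Lyz2.

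Per 1000 CPM of this macrophage sum, Ms4a7 had 33.2, 28.3 and 27.3 CPM in control and 29.5, 24.0 and 25.4 CPM in SRF. These values overlapped, with means of 29.6 ± 3.14 and 26.3 ± 2.85 (SD, n = 3 each, exact permutation p = 0.3). With 3 mice per group, this test cannot show that Ms4a7 and the macrophage sum changed alike. Ms4a6d (8.71 ± 0.733 and 7.05 ± 1.24, p = 0.2) and Ms4a6c (6.77 and 4.56, p = 0.2) overlapped as well in exact permutation tests. Ms4a4a went from 2.97 ± 0.198 to 1.88 ± 0.128, Ms4a6b from 7.004 ± 0.995 to 3.24 ± 0.373 and Ms4a4c from 1.54 to 0.516, each with all SRF values below all control values (exact permutation p = 0.1, adjusted over the 6 members 0.2). Another summary of the list turned the direction for Ms4a7 and Ms4a6d. Against the mean log2 CPM of the 17 genes, in which each gene counts alike, the log2 difference between groups was 0.35 for Ms4a7 and 0.20 for Ms4a6d, where against the sum it was -0.17 and -0.32. The same summary brought Ms4a4a from -0.66 to -0.14 and Ms4a6c from -0.55 to -0.028, so the lower values of these members against the sum did not carry over in size. For Ms4a6b the difference went from -1.11 to -0.59 and for Ms4a4c from -1.52 to -1.003. The part of macrophage number in the members' levels was not tested.

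**Figure D4:**
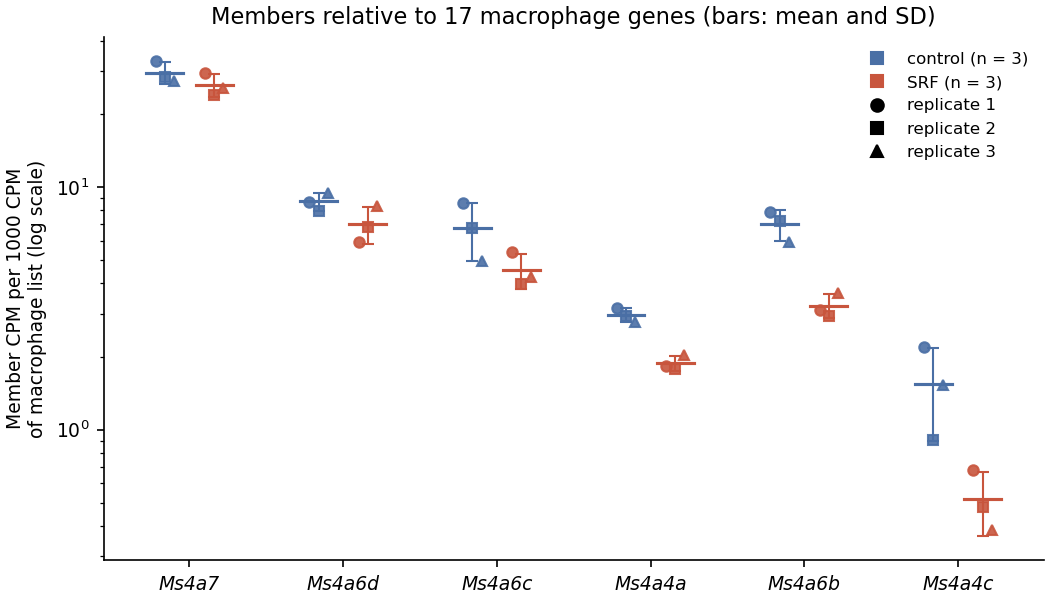
CPM of each member per 1000 CPM of the summed macrophage list (vertical axis) in 3 control and 3 SRF libraries, points for mice and bars for mean and SD. The groups overlap for Ms4a7, Ms4a6d and Ms4a6c, and the SRF points lie below the control points for Ms4a4a, Ms4a6b and Ms4a4c.

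Other cells that express Ms4a genes were traced by marker lists, some of which include an Ms4a gene themselves. Border or perivascular macrophages are among the cells for which Ms4a7 is commonly used as a marker, and infiltrating macrophages had no list of their own. Of the 7 border or perivascular markers, 4 were higher and 3 lower in SRF, and the median log2 fold change was 0.13. None of the 7 was called by edgeR or by DESeq2, which called 0.0% and 1.14% of all tested genes. The summed level was 98.9 to 186 CPM in control and 124 to 173 CPM in SRF. Microglia markers had 5 of 7 tested, all 5 higher, with a median of 0.49, and sums of 226 to 435 and 312 to 515 CPM that overlapped. T and NK cell markers were sparse, with 2 of 7 tested: Ms4a4b and the cytotoxic granule gene Nkg7 (log2 fold change -0.99, SE 0.26), both with all SRF values below all control values. Their sum was 17.7 to 21.2 CPM in control and 11.03 to 11.5 CPM in SRF. Ms4a4b itself gave 4.38 to 6.18 CPM of this sum in control and 2.45 to 3.64 CPM in SRF. B cell markers summed to 5.48 to 10.2 and 8.19 to 10.5 CPM, with Ms4a1 at 0.549 CPM in control and 0.661 CPM in SRF. Mast cell markers had 5 of 7 listed, without Ms4a2 and Fcer1a, and all 5 were higher, with a median of 1.27, sums of 39.2 to 44.8 and 61.8 to 70.7 CPM, and DESeq2 calls for the proteases Tpsb2 and Cma1. Granulocyte markers had 3 of 7 listed, Ms4a3 not among them, and none could be tested. Dendritic cell markers had 3 of 6 tested, all 3 higher, with a median of 0.17 and a DESeq2 call for the integrin Itgax (log2 fold change 1.27, SE 0.25). Endothelial markers had a median of 0.03 over 7 genes, photoreceptor markers -0.08 over 10, and RPE markers -0.43 over 10, with 8 of them lower. For 5 of the 10 RPE markers all SRF values lay below all control values, as for 6.43% of tested genes. DESeq2 called 2 of the 10 as lower in SRF. The part of these cell types in the members' levels was not tested.

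Genes of receptors linked to Ms4a proteins, and of the signalling around these receptors, were read out last. Of 11 such genes 10 were listed (not Vsig4) and 8 tested, 7 with a higher and 1 with a lower SRF level, and their median log2 fold change was 0.72. Clec7a, the beta-glucan receptor that partners with Ms4a4a, had 11.1, 12.3 and 12.3 CPM in control and 26.8, 38.5 and 32.7 CPM in SRF. Its SRF values were all far above the highest control, and its log2 fold change was 1.45 (SE 0.17, edgeR adjusted p = 0.142, DESeq2 adjusted p = 4.44e-08). Trem2, the lipid-sensing receptor whose soluble form is associated with the human MS4A locus, went from 28.5 ± 5.55 to 62.5 ± 13.7 CPM (log2 fold change 1.13, SE 0.21), and its adaptor Tyrobp from 63.9 ± 3.81 to 111 ± 20.4 CPM (0.80, SE 0.15). The Fc receptor gamma chain Fcer1g, at 64.6 ± 2.74 and 109 ± 18.2 CPM, had a log2 fold change of 0.76 (SE 0.14). DESeq2 called these 4 genes and edgeR none, and the Fc receptor Fcgr3 (0.67, SE 0.18, DESeq2 adjusted p = 0.0633) was called by neither. The kinase Syk (0.32, SE 0.23) and the phospholipase Plcg2 (0.09, SE 0.17), which act downstream of these receptors, overlapped between the groups. Il1b, the cytokine released through the inflammasome, was the lower gene, at 3.45 ± 1.95 CPM in control and 1.69 ± 0.410 CPM in SRF with overlapping values (log2 fold change -1.04, SE 0.52, edgeR adjusted p = 0.785). Nlrp3 and Card9 had 2 to 16 counts per library and were not tested.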

How the data were processed

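RPE-choroid RNA of 3 control and 3 SRF mice was sequenced, and groups were taken from the sample titles. The authors filtered the reads with FASTP, counted reads per gene with StringTie, and deposited whole-number counts without normalization and FPKM values, scaled by transcript length and mapped reads. The aligner, genome build, annotation and strandedness are not given in the sources used here. GENCODE M21 (GRCm38) gave the positions, and 15659 of the 15663 listed identifiers matched it.

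Of the listed genes, 13454 had over 50 counts in 2 or more libraries and were compared with edgeR 4.0.16 in R 4.3.3 (TMM, estimateDisp, glmQLFit and glmQLFTest with the installed defaults, with no covariate), with Benjamini-Hochberg adjustment across them. The threshold for a call was an adjusted p of 0.05 together with an absolute log2 fold change of 0.5 or more, and 2209 genes stayed untested. Since the authors used DESeq2 with these criteria, DESeq2 1.42.0 was run beside it, and limma 3.58.1 on log2(FPKM + 0.1) and log2(FPKM + 1). SDs measure the spread over 3 mice per group. The p-values of edgeR, DESeq2 and limma rest on variances estimated with information from all tested genes. The sign-flip test compared neighbouring members within the 6 libraries. Single values were compared by exact two-sided permutation tests. The code was tested on simulated data. Named genes were the members, every other listed Ms4a gene, the partner list, up to 4 genes of highest count from each marker list with its Ms4a genes, and the 5 genes nearest in profile to the mean of the tested members and to Ms4a7. Csf1r and Mertk fall outside this rule and were named after their values were seen. The members and lists were chosen with earlier results of these data known. Promoter windows are from RefSeq on GRCm38.p6, and protein sequences were not used here. Alternatives were other normalizations and count filters, the newer form of the edgeR fit, a photoreceptor covariate, a replicate block, each library left out, and other units and marker summaries. The fits of DESeq2 with libraries left out were chosen after seeing the data.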

Additional observations from a re-analysis of the deposited data

How the results depend on the processing

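The log2 fold changes of Ms4a7 (0.92 to 1.10), Ms4a6d (0.70 to 1.07), Ms4a6c (0.49 to 0.79) and Ms4a4a (0.39 to 0.65) were above 0 under all 25 settings, and the call for Ms4a7 depended on the test and the libraries kept, with an adjusted p under 0.05 in 9 of the 25 and adjusted p-values from 6.31e-11 to 0.947. Ms4a4c, at 28 to 76 counts per library, stayed outside the main fit, and a small change in it could go unseen. Causes were not tested. The number of genes called, 0 with edgeR, was 153 with DESeq2, 2 with limma at either pseudocount, and 1 each with legacy = FALSE, upper-quartile factors, no filter, filterByExpr and the photoreceptor covariate. It was 153 in edgeR without control 1 and SRF 3, the libraries rich in photoreceptor RNA, and 0 to 5 with single libraries left out (5 without control 1). DESeq2, in fits added after the data had been seen, called 67 to 343 genes with single libraries left out (246, 90 and 182 without control 1, 2 and 3, and 151, 67 and 343 without SRF 1, 2 and 3) and 514 without both. Members called, 0 with edgeR, were 1 with DESeq2, 1 in edgeR without control 1 and SRF 3, 1 to 2 in DESeq2 with single libraries left out (Ms4a6d joined Ms4a7 without SRF 1) and 2 without both (Ms4a7 and Ms4a6c). Ms4a7 passed at a log2 fold change of 1.02 with DESeq2 (adjusted p = 1.89e-08), 0.99, 1.05 and 1.02 with DESeq2 without control 1, 2 and 3, 1.04, 0.92 and 1.09 without SRF 1, 2 and 3, and without control 1 and SRF 3 at 1.06 with edgeR (adjusted p = 0.0136) and 1.06 with DESeq2 (8.63e-08). In DESeq2, Ms4a6d passed without SRF 1 (1.07, adjusted p = 0.0015) and Ms4a6c without control 1 and SRF 3 (0.78, adjusted p = 0.0497). Directions turned for Ms4a6b without SRF 2 (-0.0094 with edgeR, -0.014 with DESeq2), for Ms4a4d without control 2 (0.063 with edgeR, 0.053 with DESeq2, against -0.69 without control 1 and SRF 3) and, against the mean log2 CPM of the macrophage list, for Ms4a7 (0.35) and Ms4a6d (0.20). The share of Ms4a6d, higher by 0.32 percentage points in SRF, ranged from -0.94 to 2.001 with single libraries left out and was lower without control 1, control 2, SRF 2 or SRF 3. In counts per kilobase of the longest transcript, 4 neighbouring pairs of members had an adjusted p under 0.05 in the sign-flip test, where FPKM gave 0. This rests on how many pairs were at the smallest possible p, 4 (adjusted p = 0.0391) against 3 (0.0521). For Ms4a7 and Ms4a6b the longest transcript (3607 and 4286 bases) was longer than the length the FPKM values imply. Equal replicate numbers in the labels name different mice, and the deviations of same-numbered mice from the group means did not go together (r = -0.47, 0.50 and -0.28), and with the number as a replicate block 0 genes and 0 members were called.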

Other observations

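The genes closest in profile were taken by the root-mean-square difference of centred log2 CPM over the 6 libraries, a description in which the difference between groups takes part. Nearest to the mean of the 5 tested members were Anpep (an aminopeptidase of myeloid and other cells, 0.051 on the log2 scale), Tmem106a (0.063), Clec4n (a C-type lectin receptor for fungi, 0.078), Irf8 (a transcription factor of mononuclear phagocytes, 0.080) and Ptger1 (a prostaglandin E receptor, 0.087), where the median of all tested genes was 0.398. Anpep had 17.8 ± 1.797 CPM in control and 27.4 ± 3.61 CPM in SRF, and Irf8 21.7 ± 1.48 and 31.7 ± 5.57 CPM (SD, n = 3 each). Nearest to Ms4a7 alone were Cd68 (a lysosomal glycoprotein of macrophages, 0.080), Bcl2a1b (a survival gene of the Bcl2 family, 0.092), Spi1 (a myeloid transcription factor, 0.106), Itgb5 (an integrin chain, 0.108) and C1qb (0.110), against a median of 0.564. The other tested members were at 0.250 for Ms4a6c, 0.252 for Ms4a6d, 0.282 for Ms4a4a and 0.488 for Ms4a6b, all under that median. The 5 named genes were picked as the nearest of all tested genes outside the family. That the members lie farther away than these is therefore not a result.

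Counts and FPKM of a gene together imply the transcript length by which its FPKM was scaled. For Ms4a4b that length ran from 1598 to 4744 bases between libraries, 2.97 times, and for Ms4a4c from 931 to 1724 bases, 1.85 times, whereas for the other members the highest was at most 1.07 times the lowest. The median over all tested genes was 1.03, and 4.13% of tested genes were over 1.5. Ms4a4b had 1.28, 2.06 and 1.22 FPKM in control and 0.58, 1.57 and 1.36 FPKM in SRF, which overlap, while its CPM values did not.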
